A study of Homo sapiens with 4 samples.

Results

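The genes described here are the zinc finger genes of a window on the short arm of human chromosome 19, next to the centromere. They were chosen as all genes whose symbol begins with ZNF and that start between positions 15000000 and 27000000 of chromosome 19 in the T2T-CHM13v2.0 assembly. This gave 40 of the 28775 genes counted. The rule itself uses no measured value, but it was set with earlier results of these data known. The first of the 40 genes, ZNF101, starts at 19805664 and the last, ZNF254, ends at 24280157, so the outer parts of the window held no ZNF gene. Of the 40, 37 had a protein-coding transcript in GENCODE 29, ZNF56P and ZNF826P are annotated as transcribed pseudogenes, and ZNF276-AS1 is a long non-coding RNA. That RNA carries the name of a gene of another chromosome, although its own locus lies beside ZNF726. RNA-seq was measured in 4 samples of HEK293T, a transformed human embryonic kidney cell line. There were 2 MORC2 KO samples, each a bulk population edited by Cas9 with its own gRNA (sgRNA 1 in replicate 1 and sgRNA 2 in replicate 2), and 2 WT samples. Both gRNAs cut in the same exon of MORC2, and their published sequences are the same stretch shifted by 1 base. No clone was isolated, and no further allele or agent is named in the labels. A mock-edited WT is not described, so genotype and the editing procedure cannot be told apart. Since the samples are bulk, fewer cells with a transcript and less transcript per cell cannot be told apart.

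Most of these genes encode KRAB zinc finger proteins, the largest family of human transcription factors. A tandem array of C2H2 fingers binds DNA, commonly in transposable elements, and the KRAB domain binds TRIM28, which brings the H3K9 methyltransferase SETDB1 and HP1 proteins. The genes arose by repeated tandem duplication, largely in primates, so that neighbours resemble each other. MORC2 is an ATPase that compacts DNA in vitro and works with the HUSH complex, which silences H3K9me3-marked loci and young LINE-1 elements. In HEK293T, the paper found MORC2 mainly at accessible promoters with little H3K9me3, and saw limited binding at LINE-1 elements. Clusters of ZNF genes on chromosome 19 are themselves known for H3K9me3 over their 3′ exons. The comparison therefore asks whether transcripts of this cluster differ where MORC2 has been disrupted.

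The targeted gene was lower in both edited samples. MORC2 had 3064 and 3637 counts after editing, against 5131 and 4669 in WT. This is a log2 fold change of -0.71 (SE 0.060, edgeR adjusted p = 0.000137), so transcripts of MORC2 were reduced but still present in the edited populations. Transcript counts do not measure MORC2 protein, for which the paper checked both edited lines by western blot. The counts summed to between 53970043 and 64312514 per sample. All 8 marker genes listed for HEK293T were detected, from GAPDH down to LHX1 at 0.507 to 0.968 CPM (counts scaled to library size with TMM factors). All 8 markers of blood, liver, heart, red cells and fibroblasts were at 0.893 CPM or less in every sample.

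Promoters of these genes shared short stretches of sequence. RefSeq promoters (250 bases before to 50 bases after the annotated start, GRCh38.p14) were found for 29 of the 40 genes, and not matched were ZNF56P, ZNF729, ZNF98, ZNF276-AS1, ZNF728, ZNF253, ZNF738, ZNF506, ZNF826P, ZNF676 and ZNF99. The 3 ten-base words present in most of them were TCCAATCAGG in 26, CTGTCACTCA in 22 and GGCTTCCGGG in 20, which were picked after the promoters were compared. Both strands were searched, the 3 words do not overlap in these promoters, and every match lay on the strand of the gene. Of all 27305 promoters, these 29 included, 0.388%, 0.385% and 0.469% hold the respective word. Of the 461 promoters of other ZNF genes, 6.94%, 4.56% and 2.82% do. The first word contains CCAAT and had its median position at -58 from the start, the second at -125 and the third at -21. A match is a description of the letters and not of a bound factor. The 150 bases before the start are shown for the 4 genes with the smallest p in the comparison of genotypes (ZNF431, ZNF493, ZNF724 and ZNF726) and for 2 genes with almost no transcripts (ZNF85 and ZNF43), with the 3 words in capitals.
ZNF431: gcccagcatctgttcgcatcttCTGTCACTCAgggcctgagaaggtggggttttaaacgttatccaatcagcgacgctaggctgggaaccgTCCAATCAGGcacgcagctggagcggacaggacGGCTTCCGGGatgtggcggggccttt
ZNF493: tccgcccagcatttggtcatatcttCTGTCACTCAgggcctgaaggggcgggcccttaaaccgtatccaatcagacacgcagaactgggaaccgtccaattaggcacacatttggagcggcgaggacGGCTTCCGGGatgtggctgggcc
ZNF724: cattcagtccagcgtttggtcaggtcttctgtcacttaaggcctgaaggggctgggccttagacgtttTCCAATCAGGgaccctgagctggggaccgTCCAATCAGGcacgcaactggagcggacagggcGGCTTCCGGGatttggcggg
ZNF726: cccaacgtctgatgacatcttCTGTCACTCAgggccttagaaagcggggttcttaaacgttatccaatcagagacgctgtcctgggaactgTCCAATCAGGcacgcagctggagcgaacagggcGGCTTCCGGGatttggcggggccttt
ZNF85: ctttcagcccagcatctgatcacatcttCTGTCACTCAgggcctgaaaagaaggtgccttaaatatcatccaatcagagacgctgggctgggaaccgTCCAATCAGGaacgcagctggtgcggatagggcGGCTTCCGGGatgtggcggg
ZNF43: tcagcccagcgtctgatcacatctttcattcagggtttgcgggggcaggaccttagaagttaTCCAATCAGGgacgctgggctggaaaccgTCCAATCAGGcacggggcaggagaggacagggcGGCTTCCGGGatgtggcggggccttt
The stretches lie at chr19:21141890-21142039 (plus strand), chr19:21396983-21397132 (plus), chr19:23250395-23250544 (minus), chr19:23914736-23914885 (plus), chr19:20923101-20923250 (plus) and chr19:21836183-21836332 (minus) of GRCh38.p14. The first word had no exact match in ZNF493, the second had none in ZNF724 and ZNF43, and ZNF724 and ZNF43 hold the first word in 2 copies.

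The words were found in genes of both levels. TCCAATCAGG was found in 14 of 15 promoters of genes at 1 CPM or more and in 12 of 14 promoters of genes under 1 CPM. The counts were 10 of 15 and 12 of 14 for CTGTCACTCA and 11 of 15 and 9 of 14 for GGCTTCCGGG. All 3 words stood together in 6 promoters of each class. These 12 are among the 17 of all 27305 promoters that hold all 3. The median number of CpG dinucleotides was 11 (range 9 to 18) in the expressed class and 9.5 (8 to 16) in the other, with a median of 14 over all promoters.

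The encoded proteins resemble each other. In the 666 pairs of translated coding sequences, the median identity was 70.4%, with a range from 31.0% to 97.9%. A KRAB box was found in 35 of the 37 proteins, and not in the transcripts used for ZNF714 and ZNF492. The number of C2H2 fingers ranged from 0 in ZNF738, whose protein has 137 residues and a KRAB box alone, to 39 in ZNF729. Long arrays were also found in ZNF208 with 36 fingers, in ZNF91 with 32 and in ZNF99 with 29. ZNF91 is known to repress SVA and LINE-1 elements. Expressed genes and those under 1 CPM had a like number of fingers, with medians of 12.5 and 13, and the same median protein length of 573 residues.

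The closest pair was ZNF98 and ZNF492, which were identical at 1577 of 1593 aligned coding bases and 97.9% identical in protein. A stretch of 84 coding bases is shown for both, because it holds 4 of these differences (in capitals) and reads of 65 bases were counted even where they mapped to more than 1 place.
ZNF492: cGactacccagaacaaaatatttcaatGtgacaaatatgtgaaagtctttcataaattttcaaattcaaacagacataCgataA
ZNF98: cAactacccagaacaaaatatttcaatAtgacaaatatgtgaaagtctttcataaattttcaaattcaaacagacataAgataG
These are positions 317 to 400 of the coding sequence of the ZNF492 transcript and 440 to 523 of the ZNF98 transcript used, both in GENCODE 29. About 50.7% of the 65-base windows of the ZNF98 transcript and 54.2% of those of ZNF492 also occur in another of these genes, so counts of these genes are uncertain. For the expressed genes together, the median share of such windows was 1.28%.

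Transcript levels changed in runs along the chromosome. With 1 CPM as the border, which is a border on counts and not on level per length, 17 genes were expressed and 23 were not. Per kilobase of exon, the expressed genes lay between 0.563 CPM (ZNF726) and 7.78 CPM (ZNF675), and the highest of the others was ZNF506 at 0.169 CPM. The longest expressed run held 8 neighbours (ZNF430, ZNF714, ZNF431, ZNF708, ZNF738, ZNF493, ZNF429 and ZNF100) over 747 kb, at chr19:21159242-21906195 of T2T-CHM13v2.0. It was flanked by 11 genes under 1 CPM on the side of the chromosome end (ZNF506 to ZNF85, 1159 kb) and by 6 on the side of the centromere (ZNF43 to ZNF98, 617.6 kb). A further expressed run held ZNF724, ZNF91 and ZNF675, and ZNF101, ZNF14 and ZNF56P formed the first. ZNF492, ZNF726 and ZNF254 were expressed with neighbours under 1 CPM on the sides where another of the 40 genes lies. ZNF506 lies within the span of ZNF56P on the other strand, but their exons do not overlap. This pattern of runs was the same in all 4 samples in the plot of levels by position.

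**Figure D1:**
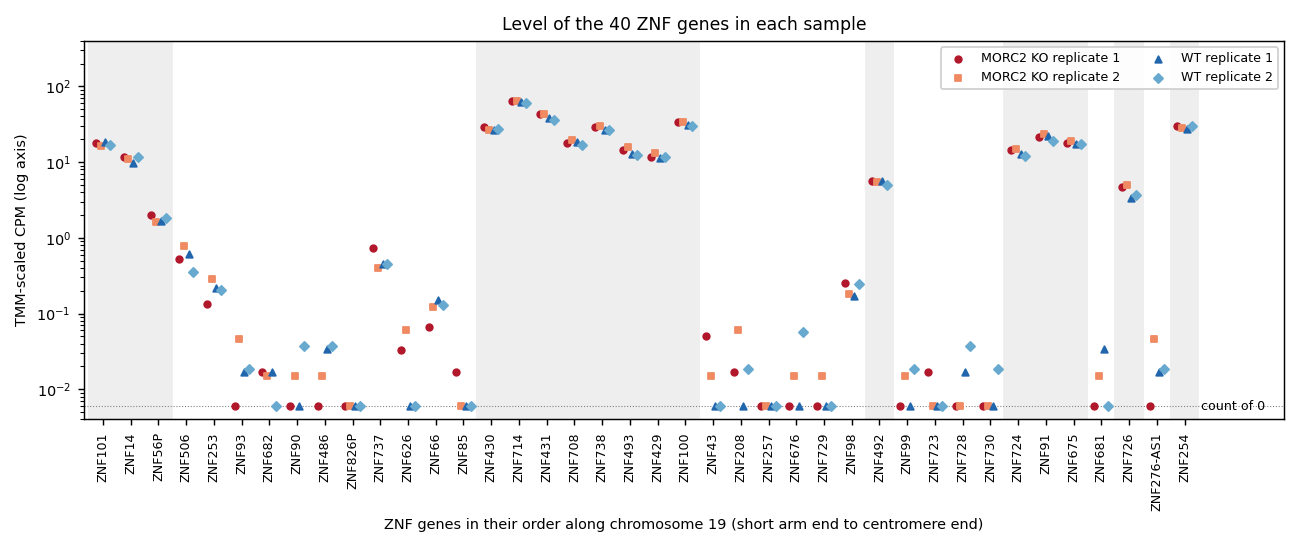
Level of each of the 40 genes in each sample (TMM-scaled CPM on a log axis), in chromosomal order, with expressed runs shaded and a count of 0 drawn at the dotted line. The 17 expressed genes have means from 1.78 to 62.5 CPM, and the 4 samples stay close together within each of them.

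Per kilobase, the highest levels were those of ZNF675 at 7.78 CPM, ZNF714 at 7.12, ZNF430 at 7.05, ZNF254 at 6.16, ZNF100 at 5.65 and ZNF724 at 4.63 (means of 4 samples). ZNF675 is known to bind TRAF6 and to dampen its signalling. None of these 6 differed between the genotypes at an adjusted p under 0.05. The differences between the first 3 in level are small, and exonic length as annotated need not be the length of the transcript in these cells.

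No gene of the cluster passed the test of MORC2 KO against WT, while nearly all fitted differences pointed the same way. Of the 40 genes, 21 had enough counts to be tested, and 0 of them were called at an adjusted p under 0.05 in edgeR, against 0.618% of all 16675 genes tested (0.588% in the direction higher in MORC2 KO). DESeq2 also called 0. At an unadjusted p under 0.05, 5 of the 21 were higher (ZNF726, ZNF493, ZNF431, ZNF724 and ZNF738) and 0 lower in MORC2 KO. Of all 16675 genes, 1358 (8.14%) were higher and 1029 lower at that p. The fitted log2 fold change was above 0 in 20 of the 21 (17 to 21 with other scalings and offsets, and 16 without MORC2 KO replicate 1), beside 51.5% of all genes. Its median was 0.084, beside 0.0054 over all genes, and it was 0.10 to 0.14 when each sample was left out, with the highest value without WT replicate 1. Both MORC2 KO samples lay above both WT samples in 8 of the 21 (38.1%), beside 24.1% of all genes. The same lean was seen in the 481 other ZNF genes tested, of which 80.9% were above 0. In 51.4% of those, both MORC2 KO samples lay above both WT samples. The 21 are those that passed the filter on low counts and do not stand for all 40, and these counts have no test of their own. Each sample gave much the same picture. Relative to the WT mean, the median log2 CPM of the 17 expressed genes was 0.13 in MORC2 KO replicate 1 with 16 genes above 0, and 0.14 in replicate 2 with 14 genes above 0. Summed over all 40 genes, the level was 369.1 and 374.0 CPM in MORC2 KO, against 345.6 and 340.6 CPM in WT. The means were 371.5 ± 3.41 and 343.1 ± 3.54 CPM (SD, n = 2), a ratio of 1.08.

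**Figure D2:**
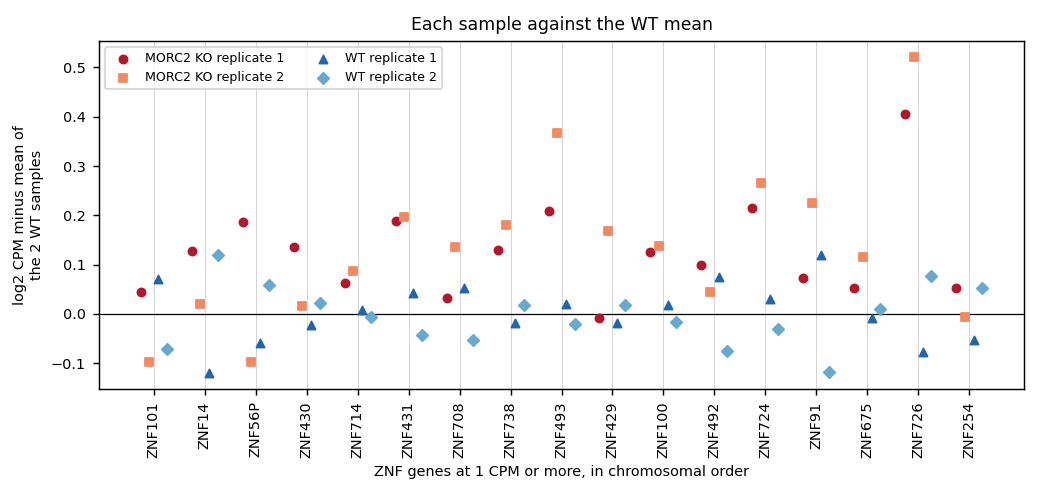
log2 CPM of each sample minus the mean of the 2 WT samples, for the 17 expressed genes in chromosomal order. Both MORC2 KO samples lie above both WT samples in 8 genes, with ZNF726 and ZNF493 farthest from 0.

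ZNF726, at chr19:24060450-24090278 of T2T-CHM13v2.0 on the plus strand, had the largest fitted difference. It encodes a protein with a KRAB box and 17 fingers. Its counts were 278 and 333 in MORC2 KO, against 198 and 197 in WT. These are levels of 4.65 and 5.04 CPM against 3.33 and 3.70 CPM, and the groups did not overlap. The fold was 1.38, with a 95% confidence interval from 1.13 to 1.69, and the log2 fold change was 0.47 (SE 0.14, edgeR adjusted p = 0.181). It ranked 440th of all tested genes by p.

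ZNF493 and ZNF431 lie in the run of 8 expressed neighbours. ZNF493 (19 fingers) was at 14.4 and 16.0 CPM in MORC2 KO, against 12.6 and 12.3 CPM in WT. Its log2 fold change was 0.29 (SE 0.086, edgeR adjusted p = 0.191). ZNF431 (12 fingers) was at 42.5 and 42.7 CPM in MORC2 KO, against 38.4 and 36.2 CPM in WT. Its log2 fold change was 0.19 (SE 0.061, edgeR adjusted p = 0.221). In both genes the MORC2 KO samples were above the WT samples, and neither passed the test. ZNF724 (14 fingers), at chr19:23356434-23385220 on the minus strand, was at 14.4 and 14.9 CPM in MORC2 KO, against 12.7 and 12.1 CPM in WT. Its log2 fold change was 0.24 (SE 0.082, edgeR adjusted p = 0.247). ZNF738, the gene without fingers in its annotated protein, was at 29.03 and 30.04 CPM against 26.2 and 26.9 CPM. Its log2 fold change was 0.16 (SE 0.065, edgeR adjusted p = 0.313).

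Leaving out a single library changed the call on 4 of these genes. Without MORC2 KO replicate 1, edgeR gave adjusted p = 0.0175 for ZNF726, 0.00455 for ZNF493, 0.0411 for ZNF431 and 0.0387 for ZNF724, at log2 fold changes of 0.51, 0.35, 0.18 and 0.25. That fit sets 1 MORC2 KO sample against 2 WT samples, takes its spread from the WT pair as if the lone sample varied alike, and called 1397 genes higher and 2117 lower of all tested. Over all alternatives, the adjusted p ranged from 0.0115 to 0.628 for ZNF726, from 0.00455 to 0.822 for ZNF493, from 0.0173 to 0.992 for ZNF431 and from 0.0349 to 0.974 for ZNF724. Without any 1 of the other 3 samples, 0 of the 40 genes were called. Without the filter on low counts, ZNF493 and ZNF726 were called (edgeR adjusted p = 0.0491 and 0.0367). The unfiltered fit called 463 genes higher and 182 lower of 22728 tested.

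Among the other expressed genes, ZNF100 was at 33.4 and 33.7 CPM in MORC2 KO, against 31.1 and 30.3 CPM in WT, and the groups did not overlap (log2 fold change 0.13, SE 0.062, edgeR adjusted p = 0.358). ZNF714, the gene with the highest CPM, was at 63.6 and 64.7 CPM against 61.2 and 60.6 CPM. Its groups did not overlap, but the difference was small (log2 fold change 0.075, SE 0.056, edgeR adjusted p = 0.555). ZNF91 was at 21.4 and 23.8 CPM in MORC2 KO, against 22.1 and 18.7 CPM in WT. Its groups overlapped, and the log2 fold change of 0.15 (SE 0.089) had an adjusted p of 0.468 in edgeR. It was 0.033 without WT replicate 2, 0.066 without MORC2 KO replicate 2 and 0.27 without WT replicate 1. ZNF675, the eighth gene without overlap, was at 18.1 and 18.9 CPM against 17.3 and 17.6 CPM (log2 fold change 0.084, SE 0.074, edgeR adjusted p = 0.622). The groups of ZNF430 overlapped, with 29.2 and 26.9 CPM against 26.2 and 27.01 CPM (log2 fold change 0.076, SE 0.069, edgeR adjusted p = 0.631).

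The lowest fitted values were those of ZNF101, ZNF253 and ZNF254. ZNF101 was at 18.0 and 16.3 CPM in MORC2 KO, against 18.4 and 16.6 CPM in WT, with a log2 fold change of -0.028 (SE 0.084, 95% confidence interval -0.21 to 0.15, edgeR adjusted p = 0.909). ZNF254 was at 29.7 and 28.5 CPM against 27.6 and 29.7 CPM, with a log2 fold change of 0.023 (SE 0.067, edgeR adjusted p = 0.909). Both genes stand at the ends of the cluster, and their groups overlapped. With library size alone ZNF101 turned to 0.011, and with offsets on GC content and length ZNF254 turned to -0.019. ZNF253 had only 8 and 19 counts against 13 and 11 and a log2 fold change of 0.0046 (SE 0.50, edgeR adjusted p = 0.997), and its interval from -1.08 to 1.09 leaves its direction undetermined. The 5 other expressed genes not yet given (ZNF14, ZNF56P, ZNF708, ZNF429 and ZNF492) had log2 fold changes from 0.048 to 0.084, each with an interval that holds 0, and ZNF56P turned to -0.043 with loess offsets on abundance.

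**Figure D3:**
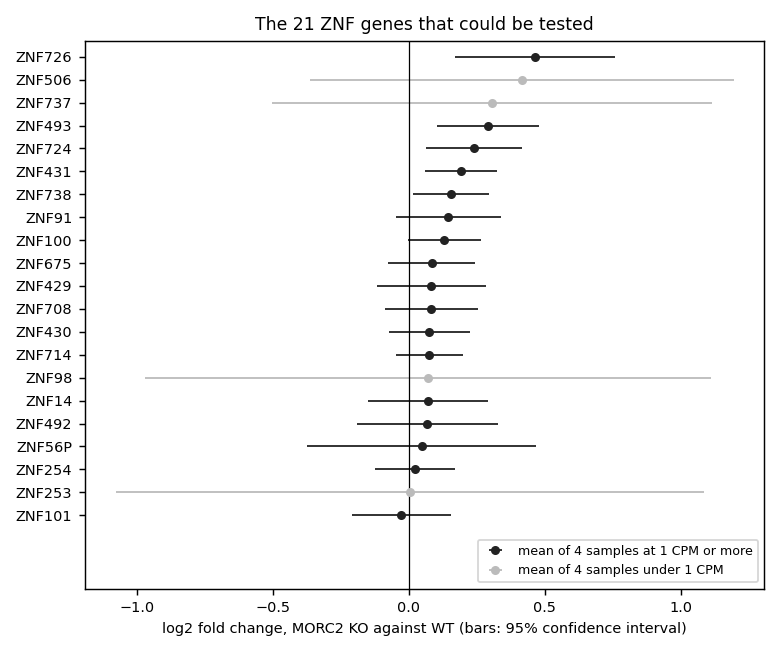
Fitted log2 fold change of MORC2 KO against WT for the 21 genes that could be tested, with 95% confidence intervals as bars, ordered by value. The point for ZNF101 alone lies below 0 (above 0 with library size alone), and the intervals of ZNF726, ZNF493, ZNF724, ZNF431 and ZNF738 do not reach 0 before adjustment.

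The genes with few counts gave no difference that could be read at this depth. The counts of ZNF506 were 31 and 51 in MORC2 KO and in WT 36 and 19, with a log2 fold change of 0.42 (SE 0.36, edgeR adjusted p = 0.614) and an interval from -0.36 to 1.20. It was 0.095 without MORC2 KO replicate 2, 0.099 without WT replicate 2 and 0.86 without WT replicate 1. ZNF737 had 44 and 26 counts against 27 and 24, with a log2 fold change of 0.31 (SE 0.37, edgeR adjusted p = 0.734) and an interval from -0.50 to 1.12. It was -0.21 without MORC2 KO replicate 1. In both the groups overlapped. ZNF98 had between 10 and 15 counts in every sample.

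The remaining 19 genes were not tested. They are ZNF93, ZNF682, ZNF90, ZNF486, ZNF826P, ZNF626, ZNF66, ZNF85, ZNF43, ZNF208, ZNF257, ZNF676, ZNF729, ZNF99, ZNF723, ZNF728, ZNF730, ZNF681 and ZNF276-AS1. Together they had 81 counts in the 4 samples, divided into 13 and 30 for MORC2 KO against 17 and 21 for WT. The highest was ZNF66, with 4 and 8 counts after editing and 9 and 7 in WT. ZNF826P and ZNF257 had 0 counts in every sample, which allows a level of up to 0.0466 to 0.0556 CPM per sample (3 counts, for counting error only). ZNF626 had 2 and 4 counts in MORC2 KO, against 0 in both WT samples, and ZNF43 had 3 and 1 against 0. ZNF93, known as a repressor of LINE-1 elements, had 0 and 3 counts in MORC2 KO, against 1 in each WT sample. More counts fell in MORC2 KO for 9 of the 19, fewer for 7 and as many for 3. No gene under 1 CPM on average reached 1 CPM in any MORC2 KO sample. Of all 40 genes, only ZNF681 shares exonic bases with another gene (145 bases, RPSA2 on the other strand), and read pairs there were left uncounted.

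Other ZNF genes stood beside these in the same fit, with the same samples. Over all 16675 genes tested, 98 (0.588%) were called higher. Of the 169 ZNF genes tested on chromosome 19 after the window, 7 were called higher and 0 lower, and the median log2 fold change was 0.19. Of the 38 tested before the window, 0 were called, with a median of 0.11. Of the 274 on other chromosomes, 7 were called higher and 0 lower, with a median of 0.078. The shares above 0 were 88.8% after the window, 84.2% before it and 75.5% on other chromosomes, beside 95.2% in the window. The difference between these lists and the 21 genes of the window was not tested. The 106 other genes of the window that were tested had 0 calls and a median of -0.019, with 43.4% above 0. Only 4 genes without a ZNF symbol were tested among the 17 that start between the first and last of the 40. They were LINC00663 (log2 fold change 0.28), CCNYL6 (0.44), IPO5P1 (0.12) and RPSA2 (-0.096), and none was called.

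**Figure D4:**
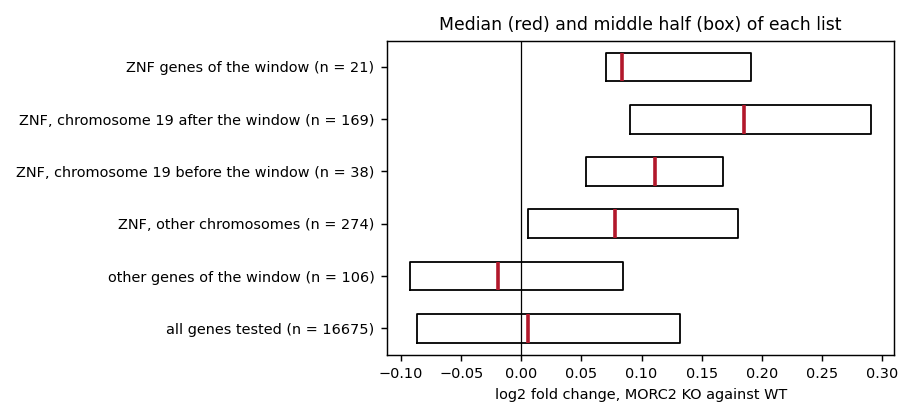
Median (red line) and lower to upper quartile (box) of the fitted log2 fold change in each list of genes that could be tested. The window's ZNF genes have a median of 0.084, between those of the ZNF genes on other chromosomes and those before the window on chromosome 19, and the other genes of the window lie around -0.019.

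In a wider list of silencing genes, from the KRAB corepressor to HUSH, the targeted gene and a HUSH subunit passed the test. Of 25 genes listed for the KRAB corepressor and HUSH, all tested, 1 was called higher and 1 lower, beside 0.618% of all genes called in either direction. At an unadjusted p under 0.05, 4 were higher and 3 lower, beside 1358 and 1029 of all 16675 genes. The median log2 fold change of the list was -0.036. The called genes were TASOR, the scaffold of HUSH (0.78, SE 0.067, edgeR adjusted p = 0.000137), and MORC2 itself. TRIM28 had a log2 fold change of -0.089, SETDB1 0.14 and CHD4, a remodeller that binds with TRIM28, -0.17, and none of these was called. ZNF274, a zinc finger protein that brings SETDB1 to the 3′ exons of ZNF genes, had 0.22 (edgeR adjusted p = 0.147).

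The borders of the window did not cut through the cluster. The nearest ZNF genes outside it were ZNF333, which starts at 14816352, and ZNF536, which starts at 32746044 beyond the centromere. Their log2 fold changes were 0.20 (SE 0.11) and 0.21 (SE 0.13), and neither was called.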

How the data were processed

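Polyadenylated RNA of 4 HEK293T samples (2 MORC2 KO, 2 WT) was sequenced by the authors in 65-base read pairs. The deposited table holds raw counts, which the authors made from read pairs with subread and featureCounts 2.0.6 on T2T-CHM13v2.0 and RefSeq genes. The deposited exon length per gene, in bases, served for levels per length. The recorded command counts multi-mapping reads, ignores strand and leaves out pairs that overlap several genes. Reads of near-identical copies may thus be shared. There were 0 columns of other samples. No row lacked a gene name (0 rows).

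Symbols were matched by Entrez identifier for 28763 of 28775 genes. Genes were filtered with filterByExpr (16675 left), scaled with TMM and tested on genotype alone with the quasi-likelihood F-test of edgeR 4.0.16 in its older form (R 4.3.3), with Benjamini-Hochberg adjustment at 0.05 over all 16675 genes. The SE of a log2 fold change is its size over √F. The WT samples were independent replicates. The MORC2 KO samples came from different gRNAs with overlapping target sequences. The p-values measure the spread between these samples. Replicates differed by more than counting noise (chi-square per degree of freedom 16.8 and 6.56). No label gives a date or batch. The biological coefficient of variation was 5.33%, and counting error adds to it in genes with few counts, among the expressed ones in ZNF56P, ZNF726 and ZNF492. The script was tested on simulated data.

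The members and gene lists were chosen with earlier results of these data known. Values are given in full for called members, the 8 uncalled with the smallest p, the 4 highest and 3 lowest log2 fold changes and the 6 highest levels per length. Fingers (C-x(2,4)-C-x(12)-H-x(3,5)-H) and KRAB boxes were found in translated GENCODE 29 coding sequences, and promoters are RefSeq on GRCh38.p14. No coordinates were converted. The alternatives were the newer edgeR form, DESeq2 1.42.0, other scaling, loess offsets (span 0.3) on abundance or on GC content and length, other filters, the replicate number as a block and leaving out each sample.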

Additional observations from a re-analysis of the deposited data

How the results depend on the processing

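The number of genes called higher was 0 with the newer edgeR form, DESeq2, RLE scaling, library size alone, a filter of 10 counts in each sample, both kinds of loess offsets and an adjusted p under 0.10. It was also 0 without ZNF492, ZNF98 and ZNF681, which have an exon overlap or a protein identity of 90% or more to another of the 40. The 19 tested genes that remained include some with smaller shares of 65-base windows in common. The number called higher was 2 of 38 tested with no filter on low counts. It ranged from 0 to 4 when each sample was left out, with 4 without MORC2 KO replicate 1. No setting called a gene lower. With the replicate block, 0 of the genes were called, and calls over all genes went from 98 higher and 5 lower to 237 and 42. The correlation of deviations between samples of the same number was -0.124. With 2 samples per genotype, this value cannot decide whether the numbers pair the samples. Pairing them the other way round, which was chosen after seeing the data, called 4 of the genes and 903 higher and 809 lower of all. Over all genes, GC content and length offsets gave 187 higher and 34 lower, no filter 463 and 182, DESeq2 115 and 17, the block with loess offsets 263 and 73, and leaving out a sample 88 to 1397 higher and 9 to 2117 lower.

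The median log2 fold change of the genes stayed between 0.065 and 0.14 (0.10 to 0.14 when a sample was left out), and library size alone moved the median of all genes to 0.045. Of 314 values of single genes under other settings, 287 kept their direction and 27 turned, in 9 genes that were not called. ZNF101 was 0.011 with library size alone. ZNF253 was -0.014 with DESeq2, -0.0017 with RLE scaling, -0.17 with loess offsets, -0.019 with GC content and length offsets, -0.045 with the replicate block, -0.23 with the block and loess offsets and -0.011 with the crossed block. With loess offsets, ZNF56P was -0.043 and ZNF98 -0.099, and with the block and loess offsets -0.044 and -0.099. ZNF254 was -0.019 with GC content and length offsets. The cause was not tested.

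Over the fits that each leave out a sample, ZNF91 ranged from 0.033 to 0.27, ZNF506 from 0.095 to 0.86, ZNF101 from -0.11 to 0.045, ZNF14 from -0.047 to 0.19, ZNF253 from -0.66 to 0.42, ZNF254 from -0.031 to 0.076, ZNF429 from -0.0069 to 0.16, ZNF492 from -0.0040 to 0.15, ZNF56P from -0.11 to 0.19, ZNF737 from -0.21 to 0.70 and ZNF98 from -0.18 to 0.35.

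Counts limit the 23 genes under 1 CPM and, beside the spread between 2 samples per genotype, also ZNF56P, ZNF726 and ZNF492.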
